A study of Mus musculus with 6 samples.

Results

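Migratory dendritic cells (DCs) marked by Ccr7 and Fscn1 were examined in the lymph node cells that had been de-enriched for CD45, in 3 libraries from mice with a YUMMER1.7 melanoma, mice with a YUMM1.7 melanoma and tumour-free (naive) mice. Unique molecular identifiers (UMIs) each mark a single captured transcript, and a cell barcode was kept from 500 UMIs and 300 genes up, with no more than 10% of its UMIs from mitochondrial genes. A kept cell was a member when it had at least 2 UMIs of Ccr7 and at least 2 of Fscn1, and none of Cd3e, Cd79a or Pecam1, which mark T cells, B cells and endothelial cells. There were 538 members among the 28538 kept cells of this fraction, or among 53259 kept cells in all 6 libraries: 181 in the YUMMER1.7 library, 190 in the YUMM1.7 library and 167 in the naive library. The members were chosen by the measured UMIs of Ccr7 and Fscn1, so the levels of these genes are given as a description only.

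All mice were C57Bl/6, and their inguinal and axillary nodes, which drained the tumour in tumour-bearing mice, were digested with collagenase and run on the 10x Chromium GEM-X 3′ v4 chemistry. YUMM1.7 cells come from a mouse melanoma, and YUMMER1.7 cells are their more immunogenic derivative, mutagenised with ultraviolet light. The other 3 libraries, 1 per arm, held cells enriched with CD11b and CD11c beads. Per the series' design text, which speaks of the myeloid cells, nodes of several mice were pooled for each library and each arm had 1 library per fraction, so mice cannot be told apart and no comparison between arms has replicates: their intervals cover counting error only, and no p-value is given for them.

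The 3 libraries held between 67709285 and 78240566 UMIs over all barcodes and the kept cells had medians of 4235 to 4886 UMIs. Although labelled as de-enriched for CD45 (with a protocol that speaks of enriching stromal cells by CD45 beads), 4500 of 6881 kept YUMMER1.7 cells, 7486 of 8680 kept YUMM1.7 cells and 12182 of 12977 kept naive cells had a UMI of Ptprc, the gene of CD45. No member barcode was shared among the 3 libraries. A single member barcode of the naive library was also a member barcode in the enriched YUMMER1.7 library and another in the enriched naive library.

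Migratory DCs are conventional DCs that have left the skin or another tissue, or have matured within the node, and that follow the chemokines Ccl19 and Ccl21 through the receptor Ccr7 to the T cell zone. On the way they lose phagocytic and pattern receptors, build the actin-bundling protein fascin (Fscn1) and raise co-stimulatory molecules, chemokines and, with them, inhibitory ligands such as PD-L1 (Cd274). Peptides on MHC class II reach CD4+ T cells and peptides on MHC class I reach CD8+ T cells, so the levels of both sets bear on what these cells can show to T cells.

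The members had the markers of the class. A UMI of Cacnb3, a calcium channel subunit typical of migratory DCs, was found in 98.9% of YUMMER1.7, 96.8% of YUMM1.7 and 93.4% of naive members, against 6.19%, 3.604% and 2.03% of the other kept cells in the same order of arms. Ccl22, the chemokine for Ccr4 on regulatory and other T cells, was found in 63.5%, 67.4% and 66.5% of members and in 2.10%, 1.51% and 1.24% of the other kept cells. Flt3, the receptor for the DC growth factor Flt3 ligand, was found in 87.8%, 86.8% and 83.8% of members, against 12.1%, 9.995% and 6.46% of B cells (cells with at least 2 Cd79a UMIs and an Ms4a1 UMI). Zbtb46, a transcription factor of conventional DCs, was found in 78.5%, 84.2% and 76.6% of members, against 2.95%, 2.03% and 1.077% of B cells. Members were deeper than the other kept cells, with medians of 11310, 10882.5 and 9464 UMIs against 4755.5, 4592 and 4202.

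The median member had 8 Ccr7 UMIs in each of the 3 libraries, with highest values of 78, 55 and 41, and 19, 23 and 16 Fscn1 UMIs, with highest values of 140, 275 and 86. At the edge of the rule, 20 YUMMER1.7, 21 YUMM1.7 and 22 naive members had Ccr7 or Fscn1 at the lower limit of 2 UMIs, and Cacnb3 was found in 100%, 95.2% and 86.4% of them. Just outside it, 30, 36 and 33 cells had both genes but at least one of them at 1 UMI, and Cacnb3 was found in 66.7%, 86.1% and 75.8% of those. Another 78 YUMMER1.7, 81 YUMM1.7 and 95 naive cells passed the limits on Ccr7 and Fscn1 but were left out for a UMI of Cd79a (53, 66 and 62 cells), Cd3e (7, 10 and 24) or Pecam1 (43, 45 and 56). The other kept cells of the library therefore hold some further Ccr7+ Fscn1+ cells.

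RNA of other cell types was present at low levels and differed between the arms. The summed level of 6 fibroblastic genes (Pdgfra, Pdgfrb, Col1a1, Col1a2, Dcn and Ccl19) was 184.0 CPM (UMIs summed over the members of a library and scaled to the same total in each) in YUMMER1.7, 98.0 CPM in YUMM1.7 and 10.9 CPM in naive members, with Pdgfra and Pdgfrb at 0 in naive. At least 1 UMI of these genes was found in 59.1%, 33.7% and 8.38% of members and in 46.2%, 21.0% and 1.077% of B cells of the same libraries. With every cell thinned to 2000 UMIs the shares were 17.7%, 9.47% and 2.99% of members and 19.3%, 9.57% and 0.314% of B cells. The summed levels of 6 plasma cell genes were 183.1, 316.9 and 113.4 CPM, of 6 T cell genes 13.0, 12.8 and 38.0 CPM, of 6 neutrophil genes 13.9, 13.3 and 2.41 CPM and of 6 melanocytic genes 0, 0.887 and 0 CPM. The stromal level was thus highest in YUMMER1.7 and lowest in naive, in members and B cells alike.

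A larger share of the kept cells were members in both tumour libraries than in the naive library. Members made up 2.63% (95% Clopper-Pearson interval 2.27 to 3.04) of kept YUMMER1.7 cells, 2.19% (1.89 to 2.52) of YUMM1.7 cells and 1.29% (1.1 to 1.496) of naive cells. The log2 ratio of the shares was 1.03 (0.72 to 1.34) for YUMMER1.7 over naive, 0.77 (0.46 to 1.075) for YUMM1.7 over naive and 0.27 (-0.04 to 0.57) for YUMMER1.7 over YUMM1.7, so the tumour libraries did not differ from each other beyond counting error. Among cells with a Ptprc UMI the shares were 3.02%, 2.03% and 1.03%, and the log2 ratio of YUMMER1.7 over YUMM1.7 was then 0.57 (0.23 to 0.92). In the CD11b- and CD11c-enriched libraries the same gate held 11.1% (756 cells), 10.4% (777 cells) and 15.1% (1584 cells) of kept cells, with log2 ratios of -0.45 (-0.57 to -0.32) for YUMMER1.7 and -0.54 (-0.66 to -0.41) for YUMM1.7 over naive. A share depends on how many other cells the beads let through, and whether a node held more migratory DCs cannot be told apart from whether it gave fewer other cells.

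**Figure D1:**
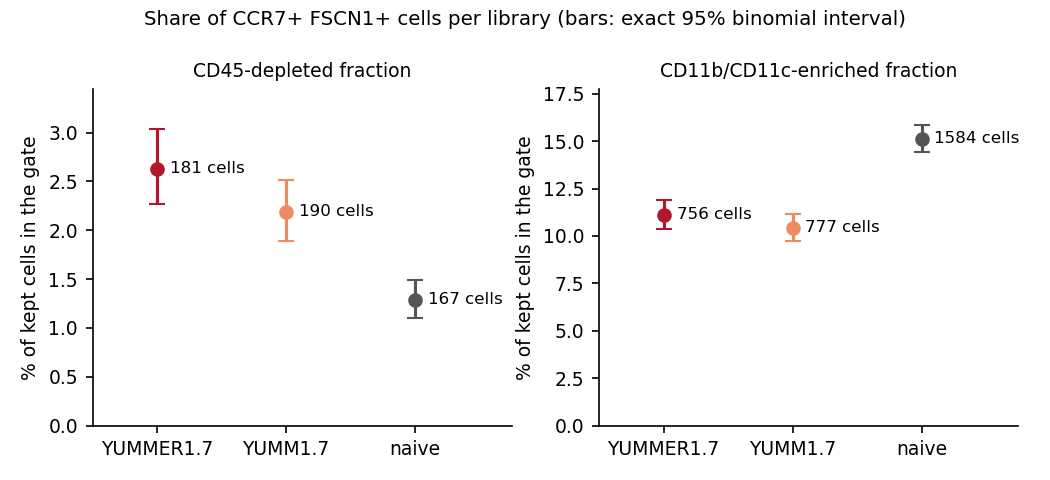
Share of kept cells in the Ccr7+ Fscn1+ gate, in percent, for each library of the CD45-depleted fraction (left) and of the CD11b- and CD11c-enriched fraction (right), with exact 95% binomial intervals and the number of member cells. Both tumour libraries lie above naive in the depleted fraction (2.63% and 2.19% against 1.29%) and below it in the enriched fraction (11.1% and 10.4% against 15.1%).

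UMIs were summed over the members of each library and compared as CPM, for genes with at least 30 UMIs in the 2 libraries of a comparison. Of 8597 such genes, 331 (3.85%) were at least 2-fold higher and 159 (1.85%) at least 2-fold lower in YUMMER1.7 than in naive members. Of 8494 genes, 321 (3.78%) were at least 2-fold higher and 189 (2.23%) at least 2-fold lower in YUMM1.7 than in naive members. The 95% interval of the ratio lay above 0 for 13.6% and below 0 for 10.5% of genes in YUMMER1.7, and above 0 for 13.0% and below 0 for 11.9% in YUMM1.7, shares to set beside each list below. The median log2 ratio over all genes was 0.045 in YUMMER1.7 and -0.004 in YUMM1.7. The counts were other under other filters: among genes with at least 100 UMIs 87 were higher and 35 lower in YUMMER1.7, and 75 higher and 32 lower in YUMM1.7, while without the members that had a stromal UMI 138 were higher and 241 lower in YUMMER1.7 and 181 were higher in YUMM1.7. That setting kept 74 of 181 YUMMER1.7, 126 of 190 YUMM1.7 and 153 of 167 naive members, so fewer cells and less stromal RNA cannot be told apart in it.

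The 8 genes that stood furthest above naive in both tumour libraries included parts of the actin machinery and of a peptide receptor. Ramp3, a receptor activity-modifying protein that pairs with Calcrl to form an adrenomedullin receptor, had 98.9 CPM in YUMMER1.7 and 77.6 in YUMM1.7 members, against 20.5 CPM in naive members, and was found in 68, 60 and 17 cells. Its log2 ratio to naive was 2.27 (1.75 to 2.83) in YUMMER1.7 and 1.92 (1.38 to 2.49) in YUMM1.7. Both tumour libraries were high, and the other kept cells had only 4.37, 3.48 and 10.03 CPM. Scin, which encodes the actin-severing protein scinderin, had 169 and 165 CPM in YUMMER1.7 and YUMM1.7 members, against 57.9 CPM in naive members, with log2 ratios of 1.55 (1.22 to 1.88) and 1.51 (1.19 to 1.85). It was found in 90, 90 and 41 cells, so more members carried it in both tumour libraries. Rhoc, a small GTPase that acts on actin, had 122 and 158 CPM, against 53.7 CPM in naive members (log2 ratios 1.18, 0.83 to 1.54, and 1.55, 1.22 to 1.91). The other kept cells of the tumour libraries also had more Rhoc, with 53.29 CPM in YUMMER1.7 and 25.97 CPM in YUMM1.7, against 2.999 CPM in naive. The part of RNA from those cells in the Rhoc result was not tested.

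The tetraspanin Cd81 had 137 CPM in YUMMER1.7 and 183 CPM in YUMM1.7 members, against 47.7 CPM in naive members, with log2 ratios of 1.52 (1.16 to 1.90) and 1.94 (1.59 to 2.31). Cd81 also stood higher in the other kept cells of the tumour libraries, at 238 and 185 CPM against 94.1 CPM in naive, and the part of RNA from those cells in its result was not tested. Slc44a5, of the choline transporter-like family, had 105 and 117 CPM in the tumour libraries and 35.6 CPM in naive (1.55, 1.14 to 1.99, and 1.71, 1.30 to 2.14), with at most 4.95 CPM in the other kept cells. Glipr2, a Golgi-associated protein, had 360 and 402 CPM, against 166 CPM in naive members (1.11, 0.91 to 1.31, and 1.27, 1.077 to 1.47). Osbpl3, an oxysterol-binding protein relative, had 91.6 and 110 CPM, against 36.2 CPM in naive members (1.34, 0.92 to 1.78, and 1.61, 1.20 to 2.04). Rnaset2a, a lysosomal ribonuclease, had 259 and 281 CPM, against 91.7 CPM in naive members (log2 ratios 1.498 and 1.615), but it has a near-identical copy, Rnaset2b, so its counts are uncertain.

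The 8 genes that stood furthest below naive in both tumour libraries included the partner of Ramp3 and a non-classical MHC gene. H2-M2, a non-classical class I molecule, had 499 CPM in YUMMER1.7 and 503 CPM in YUMM1.7 members, against 966 CPM in naive members, and was found in 124, 128 and 137 cells. Its log2 ratios to naive were -0.95 (-1.06 to -0.84) and -0.94 (-1.05 to -0.83), nearly the same in both tumour libraries. Calcrl, the receptor that Ramp3 accompanies, had 88.1 and 79.3 CPM, against 209 CPM in naive members (-1.25, -1.51 to -0.995, and -1.40, -1.67 to -1.14). A single naive cell held 35.7% of the Calcrl UMIs, and the gene was found in 59, 55 and 37 cells, so more members carried it in the tumour libraries than in naive. Without members that had a stromal UMI the log2 ratio of Calcrl in YUMMER1.7 was -0.02. Calm4, a calmodulin relative known from the epidermis, had 35.1 and 27.0 CPM, against 103 CPM in naive members (-1.55, -1.94 to -1.16, and -1.92, -2.37 to -1.49).

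Among the others of this set, the transcription factor Ets2 had 13.5 CPM in YUMMER1.7 and 18.6 CPM in YUMM1.7 members, against 51.9 CPM in naive members (-1.95, -2.59 to -1.34, and -1.48, -2.05 to -0.93). The cell adhesion genes Dscam and Cadm2 had 318 and 309 CPM, against 599 CPM in naive members, and 121 and 68.3 CPM, against 222 CPM in naive members. Fxyd2, a regulator of the sodium pump, had 45.1 and 46.5 CPM, against 97.7 CPM in naive members. Mx1, an interferon-induced antiviral GTPase, had 93.3 and 83.3 CPM, against 175 CPM in naive members (-0.91, -1.17 to -0.65, and -1.07, -1.34 to -0.80). Both tumour libraries were low for each of these genes, and Cadm2 was lower in YUMM1.7 than in YUMMER1.7.

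**Figure D2:**
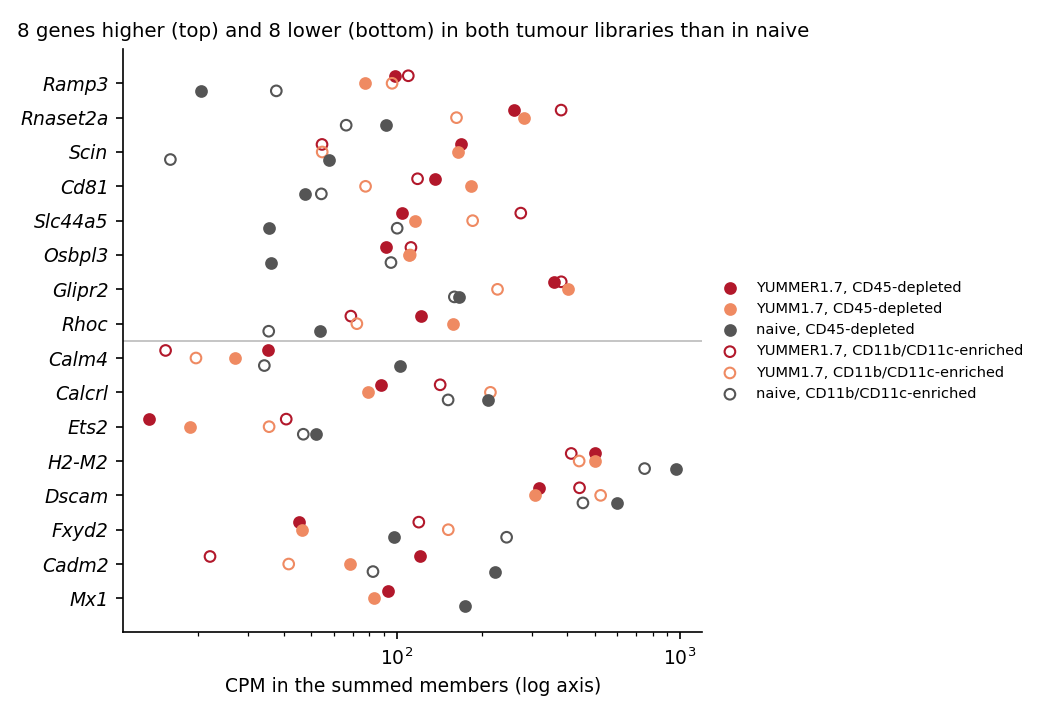
CPM (log axis) of the 8 genes furthest above and the 8 furthest below naive in both tumour libraries, in members of the CD45-depleted libraries (filled) and of the CD11b- and CD11c-enriched libraries (open). Ramp3 and Scin are higher and H2-M2 and Calm4 lower in the tumour libraries of both fractions, whereas Calcrl and Dscam, lower in both depleted tumour libraries, lie close to or above naive in the enriched ones (Dscam 442 and 524 against 454 CPM, Calcrl 142 and 214 against 152 CPM).

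Of the 20 genes for migration and the cytoskeleton, all were measured, 1 was at least 2-fold higher (Scin) and none was 2-fold lower in either tumour library. The median log2 ratio of the list was -0.25 in YUMMER1.7 and -0.05 in YUMM1.7. The intervals of 4 genes lay above 0 and of 10 below in YUMMER1.7, and of 7 above and 9 below in YUMM1.7. Ccr7 itself had 902, 894 and 958 CPM in YUMMER1.7, YUMM1.7 and naive members and Fscn1 had 2243, 2848 and 2234 CPM. Actg1, the cytoplasmic gamma actin, had 4016 and 3873 CPM, against 2697 CPM in naive members (log2 ratios 0.57, 0.52 to 0.63, and 0.52, 0.47 to 0.57), and B cells of the same libraries, whose CPM is scaled over the genes shared with the enriched libraries here and below, had 1038, 1069 and 1181 CPM. Some genes that are abundant in migratory DCs were slightly lower in both tumour libraries. The membrane protein Tmem123 had 2352 and 2486 CPM, against 2972 CPM in naive members, and Adam23 had 938 and 977 CPM, against 1191 CPM in naive members. Cacnb3, of the same list, went the other way, with 743.7 and 665.3 CPM, against 583.5 CPM in naive members. The survival receptor Il7r had 216 and 181 CPM, against 271 CPM in naive members (-0.33, -0.52 to -0.14, and -0.58, -0.78 to -0.39).

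Among 15 chemokine ligands, 10 were measured against naive. In YUMMER1.7 3 were at least 2-fold higher and 1 was 2-fold lower, beside 3.85% and 1.85% of all genes, and the median log2 ratio was 0.25, but 0.04 without members that had a stromal UMI and -0.20 over the 4 genes left by thinning. In YUMM1.7 3 were 2-fold higher and none lower, beside 3.78% and 2.23%, and the median was 0.63, but 0.25 without members that had a stromal UMI. Ccl5, which attracts T cells and NK cells, had 8643 CPM in YUMMER1.7 and 7398 CPM in YUMM1.7 members, against 13640 CPM in naive members, with log2 ratios of -0.66 (-0.69 to -0.63) and -0.88 (-0.91 to -0.85). It was found in 97.2%, 94.7% and 94.0% of members. Ccl5 was thus lower in both tumour libraries while as many cells carried it, and the other kept cells had 172, 229 and 424 CPM. Ccl22 had 482 and 582 CPM, against 373 CPM in naive members (0.37, 0.23 to 0.51, and 0.64, 0.50 to 0.78), with 21.8% and 22.1% of its UMIs in a single cell of each tumour library. Cxcl16, the ligand of Cxcr6 on T cells, had 653, 608 and 551 CPM.

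The chemokines at least 2-fold higher in one or both tumour libraries were at low levels, and in the tumour libraries Ccl19, Cxcl9 and Cxcl10 stood higher in the other kept cells than in members. Ccl19, a ligand of Ccr7, had 39.9, 15.1 and 4.83 CPM in YUMMER1.7, YUMM1.7 and naive members and 225, 87.2 and 5.76 CPM in the other kept cells, and a single YUMMER1.7 cell held 54.4% of its member UMIs. Cxcl9, an interferon gamma-induced ligand of Cxcr3, had 21.3, 16.4 and 2.41 CPM in members and 359, 121 and 3.19 CPM in the other kept cells. Cxcl10, another Cxcr3 ligand, had 36.9, 27.9 and 18.1 CPM in members and 189, 60.4 and 12.4 CPM in the other kept cells. The order of the arms was the same in members and in the other cells for all 3, and the part of free RNA in these values was not tested. Ccl6, a chemokine of myeloid cells, had 6.94, 46.5 and 8.45 CPM in members and 43.4, 36.6 and 6.56 CPM in the other kept cells, so among members it was high in YUMM1.7 alone.

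Of 20 cytokines and receptors 17 were measured, 2 at least 2-fold higher and 1 lower in YUMMER1.7 (median -0.01) and 3 higher and 3 lower in YUMM1.7 (median -0.11). Il12b, the shared subunit of interleukins 12 and 23, had 229 CPM in YUMMER1.7 and 408 CPM in YUMM1.7 members, against 312 CPM in naive members, and a single naive cell held 31.9% of the naive UMIs. It was found in 32.0%, 40.0% and 27.5% of members, against at most 0.49% of B cells. Il27 and Ebi3, the subunits of interleukin 27, were both higher in the tumour libraries: Il27 had 21.3 and 22.2 CPM, against 7.24 CPM in naive members (1.55, 0.62 to 2.60, and 1.61, 0.68 to 2.66). Ebi3 had 72.9 and 86.9 CPM, against 44.1 CPM in naive members (0.73, 0.32 to 1.14, and 0.98, 0.59 to 1.39). Il15, which sustains memory T cells and NK cells, had 412 and 370 CPM, against 523 CPM in naive members (-0.34, -0.48 to -0.21, and -0.50, -0.64 to -0.36). Il1b had 8.68 and 12.4 CPM, against 35.0 CPM in naive members, where a single cell held 50% of the UMIs.

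Co-stimulatory molecules differed little in size between the arms. Of 19 listed genes 17 were measured, and 1 of them, Cd70, was at least 2-fold higher and none 2-fold lower in either tumour library. The median was -0.09 in YUMMER1.7, with 5 intervals above 0 and 3 below, and 0.22 in YUMM1.7, where 14 of 17 genes were above 0, with 9 intervals above 0 and 2 below. Cd70, the ligand of Cd27 on T cells, had 32.5 and 33.2 CPM, against 14.5 CPM in naive members (1.17, 0.49 to 1.90, and 1.20, 0.52 to 1.93). Cd40, the receptor for T cell help, had 184, 212 and 200 CPM in YUMMER1.7, YUMM1.7 and naive members, and its intervals included 0 in both comparisons with naive. Cd80 had 240, 204 and 192 CPM and Cd86, the other Cd28 ligand, had 289, 381 and 328 CPM. Cd83, a maturation marker, had 421 and 563 CPM, against 682 CPM in naive members (-0.70, -0.82 to -0.57, and -0.28, -0.39 to -0.16), and B cells of the same libraries were also lower in the tumour arms, with 372 and 336 CPM against 567 CPM.

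Several inhibitory ligands stood higher in the tumour libraries. Of 20 inhibitory and regulatory genes 12 were measured, 6 with intervals above 0 in each tumour library and 3 and 0 with intervals below 0, with 2 at least 2-fold higher and 1 lower in YUMMER1.7 (median 0.11) and 2 higher and none lower in YUMM1.7 (median 0.29). Cd274, which encodes PD-L1, had 398 and 408 CPM, against 273 CPM in naive members (0.55, 0.38 to 0.71, and 0.58, 0.42 to 0.75). It was found in 74.0%, 76.3% and 52.1% of members, and in 41.4%, 46.3% and 29.9% after thinning to 2000 UMIs. B cells, which also express the gene, had the other order, with 139 and 143 CPM against 206 CPM in naive. Pdcd1lg2, which encodes PD-L2, had 41.7 and 66.5 CPM, against 12.7 CPM in naive members (1.72, 1.02 to 2.47, and 2.39, 1.73 to 3.12), and was found in 24.9%, 29.5% and 5.99% of members and 22.05%, 20.0% and 23.7% of B cells. After thinning to 2000 UMIs Pdcd1lg2 was found in 3.87%, 11.05% and 1.80% of members. The thinned intervals of YUMMER1.7 (1.57 to 7.81) and naive (0.37 to 5.16) overlapped.

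Cd200, the ligand of an inhibitory receptor on myeloid cells, had 142 and 146 CPM, against 87.5 CPM in naive members (0.70, 0.42 to 0.99, and 0.74, 0.46 to 1.03), while B cells had 42.6, 43.9 and 44.7 CPM. The death receptor Fas had 193 and 184 CPM, against 141 CPM in naive members. Il4i1, an amino acid oxidase that dampens T cells, had 358 CPM in YUMMER1.7 and 512 CPM in YUMM1.7 members, against 541 CPM in naive members (-0.59, -0.73 to -0.46, and -0.08, -0.21 to 0.05). Cd274, Pdcd1lg2 and Cd200 were therefore higher in both tumour libraries, and Il4i1 was lower in YUMMER1.7 alone.

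The main MHC class II genes were lower in the members of both tumour libraries. Of the 12 genes of the list 10 were measured, and none reached 2-fold in either direction, beside 3.85% and 1.85% of all genes in YUMMER1.7 and 3.78% and 2.23% in YUMM1.7. The median log2 ratio was -0.46 in YUMMER1.7 and -0.37 in YUMM1.7, with the intervals of 5 genes below 0 in each and of 0 and 1 genes above 0. H2-Aa, the alpha chain of I-A, had 1581 CPM in YUMMER1.7 and 1662 CPM in YUMM1.7 members, against 2472 CPM in naive members (-0.64, -0.71 to -0.58, and -0.57, -0.64 to -0.51). H2-Eb1, the gene of the I-E beta chain, had 1290 and 1347 CPM, against 2029 CPM in naive members (-0.65, -0.73 to -0.58, and -0.59, -0.66 to -0.52). H2-Ab1, the beta chain of I-A, had 493 and 520 CPM, against 726 CPM in naive members (-0.56, -0.68 to -0.44, and -0.48, -0.60 to -0.36). The invariant chain gene Cd74 had 2810 and 2687 CPM, against 3983 CPM in naive members (-0.50, -0.55 to -0.45, and -0.57, -0.62 to -0.52).

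The peptide-loading and regulatory genes of the pathway were less uniform. H2-DMa, of the peptide exchange complex, had 69.0, 51.0 and 71.8 CPM, with an interval below 0 in YUMM1.7 alone, and H2-Oa, which restrains peptide loading, had 29.9, 30.6 and 22.9 CPM in YUMMER1.7, YUMM1.7 and naive members. Ciita, the master transcriptional activator of class II, had 39.5, 44.8 and 52.5 CPM, and the protease Ctss, which trims the invariant chain, had 508, 482 and 508 CPM. The intervals of Ciita, H2-Oa and Ctss included 0 in both comparisons with naive.

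Class II promoters carry a Y box, the binding site of NF-Y, which belongs to the assembly that Ciita docks on. The letters CTGATTGG, or CCAATCAG on the other strand, were searched in the 250 bases before each start in RefSeq promoters of GRCm38.p6. They were found in 1258 of 32851 promoters (3.83%) and in 3 of the 9 genes of the class II list that had an entry. H2-Ab1, Cd74 and Ciita had no entry, so their promoters were not searched. The 100 bases around the match are shown for these 3 genes, because 2 of them, H2-Aa and H2-Eb1, were among the lower genes and H2-Oa was not. Capitals mark the match, and each run reads 5′ to 3′ on the strand of the gene.
H2-Aa, chr17:34287824-34287923, minus strand, match 51 bases before the start: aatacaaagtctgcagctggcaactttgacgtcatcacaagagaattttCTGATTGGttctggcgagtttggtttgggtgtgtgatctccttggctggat
H2-Eb1, chr17:34305767-34305866, plus strand, match 62 bases before the start: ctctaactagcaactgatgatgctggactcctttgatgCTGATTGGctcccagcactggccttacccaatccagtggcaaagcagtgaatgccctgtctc
H2-Oa, chr17:34092279-34092378, plus strand, match 46 bases before the start: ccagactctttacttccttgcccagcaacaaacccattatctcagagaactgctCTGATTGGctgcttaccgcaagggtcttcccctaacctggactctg
The letters stand at a similar distance from the start in all 3, and a part of the Y box in the levels was not tested.

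The class II UMIs were concentrated in a minority of members. In the median member 0.261% of UMIs in YUMMER1.7, 0.228% in YUMM1.7 and 0.306% in naive came from the class II list, and at the 90th percentile 1.81%, 2.16% and 2.64%. A limit of 1%, chosen after the values were seen, was reached by 34 YUMMER1.7 members (18.8%, 13.4 to 25.2), 37 YUMM1.7 members (19.5%, 14.1 to 25.8) and 45 naive members (26.9%, 20.4 to 34.4), so the intervals of the 3 shares overlapped. These cells held 63.9%, 66.8% and 80.0% of all class II UMIs of the members. Their own class II level was 22000, 23850 and 26120 CPM, and that of the remaining members 3119, 2856 and 2869 CPM, values that the limit itself bounds.

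Ciita, itself on the list that sets the limit, had 145, 210 and 156 CPM above the limit and 13.0, 4.95 and 6.94 CPM below it. Its difference is therefore a description only. The cells above and below the limit differed in genes outside the list too, in a like manner in all 3 libraries. Cd274 had 583, 526 and 444 CPM above and 352, 379 and 198 CPM below, higher in the tumour libraries on both sides. Ccl5 had 4027, 2363 and 3637 CPM above and 9799, 8609 and 18020 CPM below, so it was lower in both tumour libraries below the limit, and in YUMM1.7 above it too. Apol7c, a gene of the apolipoprotein L family found in maturing DCs, had 331, 311 and 1119 CPM above and 963, 1139 and 1494 CPM below.

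Class II genes were also lower in B cells of the tumour libraries, while members of the enriched fraction differed the other way. B cells of the same libraries had 2692, 2493 and 3376 CPM of H2-Aa and 6815, 5866 and 7551 CPM of Cd74. The part of B cell RNA in the members' class II level was not tested, and members had 43.0, 62.5 and 64.0 CPM summed over 6 B cell markers, of which Cd79a is 0 by the rule. In the enriched fraction 11 class II genes were measured in the same gate, and their median log2 ratio to naive was 0.38 in YUMMER1.7 and 0.36 in YUMM1.7, with the intervals of 9 and 10 genes above 0 and of 1 below in each. The intervals of 23.1% of all genes lay above 0 and of 23.0% below in YUMMER1.7, and of 18.7% above and 19.4% below in YUMM1.7. H2-Aa had 2441 and 2341 CPM there, against 2109 CPM in naive, and Ciita had 73.3 and 67.5 CPM, against 40.0 CPM in naive. The share of enriched members at or above the 1% limit was 32.4% and 32.0%, against 25.4% in naive. Members of the depleted fraction were lower and members of the enriched fraction higher in both tumour libraries, a difference that was not tested.

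**Figure D3:**
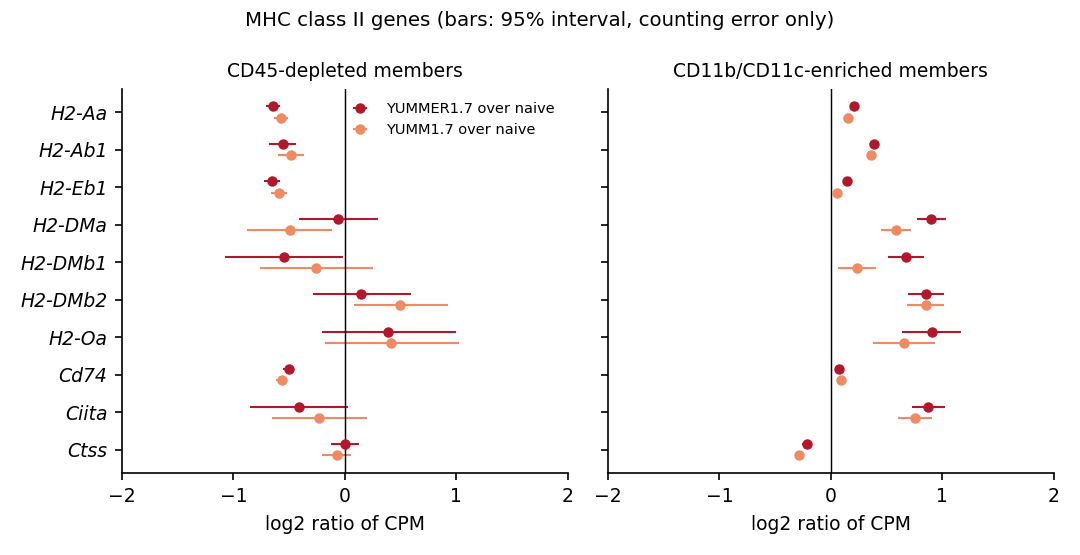
Log2 ratio of CPM to naive for the 10 measured MHC class II genes, in members of the CD45-depleted libraries (left) and of the CD11b- and CD11c-enriched libraries (right), with 95% intervals for counting error only. H2-Aa, H2-Ab1, H2-Eb1 and Cd74 lie below 0 on the left in both comparisons (H2-Aa at -0.64 and -0.57) and above 0 on the right.

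MHC class I genes stood slightly higher in the tumour libraries. All 16 listed genes were measured, none reached 2-fold, and the median log2 ratio was 0.24 in YUMMER1.7 (intervals of 13 genes above 0 and 2 below) and 0.28 in YUMM1.7 (9 above and 0 below), where it was 0.04 with cells thinned to 2000 UMIs and 0.15 without members that had a stromal UMI. The peptide pump subunit Tap1 had 191 and 189 CPM, against 139 CPM in naive members (0.45, 0.22 to 0.69, and 0.44, 0.21 to 0.68). The tapasin gene Tapbp had 385 and 368 CPM, against 284 CPM in naive members, and the proteasome activator gene Psme1 had 1153 and 1130 CPM, against 875 CPM in naive members. B cells were even between the arms for these 3 genes, with 79.5, 67.6 and 72.6 CPM of Tap1. Pdia3, a chaperone of class I loading, had 193 and 195 CPM, against 131 CPM in naive members, but B cells had 375, 400 and 224 CPM. The heavy chain H2-K1 had 3369, 3440 and 3524 CPM and B2m had 5337, 4788 and 4775 CPM, and reads of H2-K1 and H2-D1, which are alike in sequence, may be assigned to either.

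Type I interferon medians lay slightly below 0 in both tumour libraries, and interferon gamma genes stood slightly higher in YUMMER1.7. Of 28 type I interferon genes 13 were measured in YUMMER1.7, with none at least 2-fold higher and 1 lower (median -0.15). Their intervals lay above 0 for 0 genes and below 0 for 2, beside 13.6% and 10.5% of all genes. In YUMM1.7 15 were measured, with 2 higher and 3 lower (median -0.16), 3 intervals above 0 and 5 below. In enriched members the type I medians were 0.33 and 0.15, on the other side of 0, and the interferon gamma medians were -0.04 and -0.29. Rsad2, an antiviral enzyme, had 9.11 and 11.1 CPM, against 24.1 CPM in naive members. Isg15, a ubiquitin-like modifier, had 40.8 CPM in YUMMER1.7 and 93.1 CPM in YUMM1.7 members, against 45.9 CPM in naive members, high in YUMM1.7 alone. Of 23 interferon gamma genes 16 were measured in YUMMER1.7, with 12 above 0, 7 intervals above 0 and 0 below, and a median of 0.27. The 2 genes at least 2-fold higher there were Cxcl9 and Cxcl10, which stood higher in the other kept cells than in members. In YUMM1.7 15 were measured, with 3 intervals above 0 and 3 below, 2 genes at least 2-fold higher (Irf8 and Cxcl9), 1 lower (Irgm2) and a median of 0.06.

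Irf8, a transcription factor of DCs that interferon gamma induces, had 290 and 339 CPM, against 168 CPM in naive members (0.79, 0.59 to 0.996, and 1.02, 0.82 to 1.22). B cells had 220, 209 and 266 CPM of Irf8, the other order. Irf1, a transcription factor that interferon gamma induces, had 302, 281 and 258 CPM in YUMMER1.7, YUMM1.7 and naive members, with an interval including 0 in YUMM1.7.

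Several inhibitors and targets of NF-kB were lower in the tumour libraries, with 6 of 17 intervals below 0 in each and 1 and 3 above. All 17 listed genes were measured, none was 2-fold lower, 1 was 2-fold higher in YUMM1.7, and the medians were -0.16 and -0.04. Tnfaip3, a feedback inhibitor, had 218 and 242 CPM, against 360 CPM in naive members (-0.73, -0.90 to -0.55, and -0.57, -0.74 to -0.40). Nfkbia, which encodes the inhibitor IkBa, had 994 and 1126 CPM, against 1350 CPM in naive members, and the subunit gene Rel had 797 and 902 CPM, against 1177 CPM in naive members. B cells showed the same order for Rel, with 397, 445 and 885 CPM. Nfkb2, of the non-canonical pathway, had 142 and 123 CPM, against 88.7 CPM in naive members (0.67, 0.39 to 0.96, and 0.47, 0.18 to 0.77).

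Receptors of uptake were nearly absent, and 4 of 23 listed genes were measured in YUMMER1.7 and 5 in YUMM1.7. Fcer1g, the signalling chain of Fc receptors, had 217 and 224 CPM, against 344 CPM in naive members (-0.66, -0.84 to -0.49, and -0.62, -0.79 to -0.44). Ly75, the endocytic receptor DEC-205 that migratory DCs retain, had 363, 421 and 392 CPM in YUMMER1.7, YUMM1.7 and naive members. Of 21 lysosomal and lipid genes 16 and 17 were measured, with 3 at least 2-fold higher and 1 lower in YUMMER1.7 (median 0.08) and 2 higher and none lower in YUMM1.7 (median 0.19). The cathepsin Ctsz had 453 and 485 CPM, against 340 CPM in naive members, and Apol7c had 837 and 978 CPM, against 1380 CPM in naive members (-0.72, -0.81 to -0.63, and -0.50, -0.58 to -0.41). Apoe had 137, 40.3 and 33.8 CPM, but a single YUMMER1.7 cell held 69.8% of its UMIs.

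The members held some markers of several DC lineages, while other markers of the same lineages were found in few members. Cadm1, an adhesion molecule of the cDC1 lineage, was found in 24.9% of YUMMER1.7, 23.2% of YUMM1.7 and 28.7% of naive members, against at most 0.93% of B cells. Of other cDC1 markers, Clec9a was found in 4.42%, 4.21% and 2.99% of members. Itgae was found in 2.76%, 1.05% and 1.80%, and Xcr1 in 0%, 1.05% and 0%. Sirpa, which marks cDC2, was found in 13.3%, 10% and 10.8% of members, against 3.96%, 3.46% and 1.21% of B cells. Epcam, found on Langerhans cells and on some dermal DCs, was found in 18.8%, 24.7% and 21.6% of members, and B cells had it in 9.42%, 8.80% and 5.12%. The interleukin 23 receptor gene Il23r was found in 33.7%, 36.8% and 28.7% of members and in at most 0.173% of B cells. The intervals of the members' unthinned shares overlapped between all 3 arms for each gene.

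Most measured genes of Langerhans cells and epidermal DCs stood lower in the tumour libraries. Of 12 listed genes 6 were measured, with 2 at least 2-fold lower and none higher in each tumour library, beside 1.85% and 2.23% of all genes. The medians were -0.61 and -0.65, but the second was -0.07 over the 3 genes with at least 100 UMIs and -0.08 over the 2 left by thinning. Cd207, the C-type lectin langerin, had 4.77 and 3.99 CPM, against 18.7 CPM in naive members (-1.97, -3.11 to -0.94, and -2.23, -3.48 to -1.12), and was found in 3.87%, 2.63% and 9.58% of members. Ptgs2, a prostaglandin synthase, had 20.0 and 12.0 CPM, against 40.4 CPM in naive members, of which a single cell held 32.8%. The anchoring protein gene Lad1 had 50.3, 73.1 and 76.6 CPM. Epcam, also on the list, had 25.6, 45.2 and 32.6 CPM, so it was higher in YUMM1.7 than in naive members. Of the genes of cDC1 origin 6 of 12 were measured (medians 0.23 and 0.27), and of cDC2 origin 5 of 14 (medians 0.19 and 0.94, the second at -0.30 with cells thinned to 2000 UMIs, which left 1 gene). Batf3, a transcription factor needed for cDC1, had 278, 256 and 229 CPM.

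Some genes were found in the same members more often than in the rest, as a description of cells within a library. Il12b was found in 54.1% of Il23r+ and 20.8% of Il23r- members in YUMMER1.7, in 47.1% and 35.8% in YUMM1.7, and in 41.7% and 21.8% in naive. The Il23r+ cells were deeper, with medians of 13210, 12383 and 9968.5 UMIs against 10416.5, 10477 and 8947. Cd274 was found less in Epcam+ than in Epcam- members, in 50% and 79.6% in YUMMER1.7, 59.6% and 81.8% in YUMM1.7 and 30.6% and 58.0% in naive. In YUMMER1.7 the level of Epcam in members was near that in B cells. Ccl17, the other Ccr4 ligand, was found in 31.3%, 31.2% and 36.9% of Ccl22+ members and in 10.6%, 8.06% and 8.93% of Ccl22- members. Aire, the autoimmune regulator, was found in 7.18% of YUMMER1.7, 14.7% of YUMM1.7 and 4.19% of naive members, against at most 0.299% of B cells.

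Members with several proliferation genes were a small part of each library. At least 4 of 21 such genes were found in 21 YUMMER1.7 members (11.6%, 7.33 to 17.2), 15 YUMM1.7 members (7.89%, 4.49 to 12.7) and 10 naive members (5.99%, 2.91 to 10.7). Of 22 listed genes 9 were measured in YUMMER1.7, with 1 at least 2-fold higher and none lower, beside 3.85% and 1.85% of all genes (median 0.61), and 16 in YUMM1.7, with 7 higher and none lower, beside 3.78% and 2.23% (median 0.77). These medians rested on few cells: without the member with most UMIs of each gene they were 0.32 and 0.36, and without the 1 YUMMER1.7 and 2 YUMM1.7 members above 30000 UMIs 0.28 and 0.31. Top2a, which untangles DNA, had 15.6 and 49.6 CPM, against 10.3 CPM in naive members, and a single YUMM1.7 cell held 34.8% of its UMIs. Stmn1, which destabilises microtubules, had 30.4 and 62.5 CPM, against 12.7 CPM in naive members.

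Glycolytic genes stood higher in both tumour libraries, with the intervals of 10 genes in YUMMER1.7 and 8 in YUMM1.7 above 0 and none below. Of 20 listed genes 15 were measured, with 3 at least 2-fold higher and none lower in each tumour library, beside 3.85% and 3.78% of all genes higher, and medians of 0.54 and 0.56. Without members that had a stromal UMI the medians were 0.13 and 0.31, and without the 1 YUMMER1.7 and 2 YUMM1.7 members above 30000 UMIs the YUMMER1.7 median was 0.30. Gapdh had 705 and 645 CPM, against 410 CPM in naive members (0.78, 0.65 to 0.91, and 0.65, 0.52 to 0.78), and B cells of the same libraries had 783, 683 and 430 CPM. Eno1 had 36.5 and 33.7 CPM, against 13.3 CPM in naive members, and Pgk1 had 83.7 and 82.9 CPM, against 53.7 CPM in naive members. B cells had 132, 120 and 77.5 CPM of Eno1, and the part of RNA from other cells in these values was not tested.

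Genes of dissociation and heat shock had medians of 0.46 and 0.36 over 18 measured of 20, with 4 and 1 at least 2-fold higher and none lower, but the YUMMER1.7 median was -0.09 with cells thinned to 2000 UMIs, which left 14 genes. Jun had 192 and 131 CPM, against 80.9 CPM in naive members, and the other kept cells had 539, 370 and 161 CPM. Hspa1b, a heat shock protein, had 134 and 83.8 CPM, against 59.1 CPM in naive members. In contrast, Fos had 94.6 and 129 CPM, against 167 CPM in naive members, so the list did not move one way. Of 18 apoptosis and survival genes 17 were measured, with medians of -0.06 and 0.02. Pmaip1, which encodes the pro-apoptotic protein Noxa, had 159 and 201 CPM, against 322 CPM in naive members (-1.01, -1.21 to -0.82, and -0.68, -0.86 to -0.49).

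**Figure D4:**
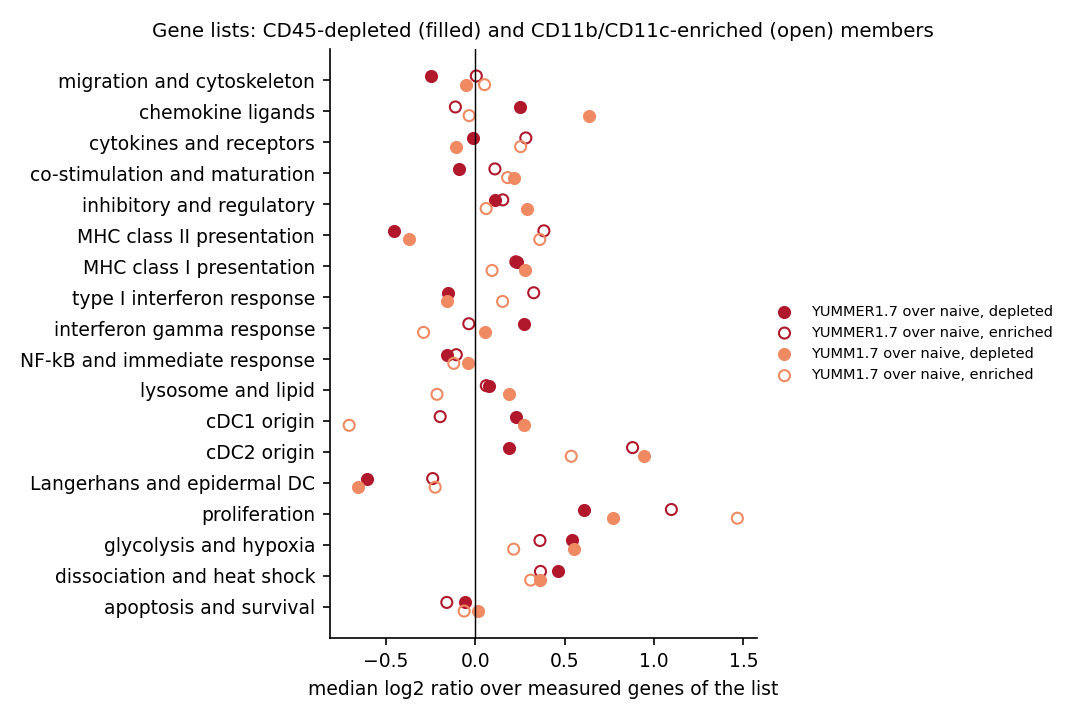
Median log2 ratio to naive over the measured genes of each list (lists with at least 5 measured genes in the depleted fraction), for YUMMER1.7 and YUMM1.7, in members of the CD45-depleted (filled) and CD11b- and CD11c-enriched (open) libraries. MHC class II lies at -0.46 and -0.37 in the depleted and at 0.38 and 0.36 in the enriched members, while the glycolysis list lies at 0.54 and 0.56 in the depleted members.

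Fewer genes in all were at least 2-fold apart between the members of the tumour libraries than between either of them and naive. The naive members held fewer UMIs in sum, at 1657233, against 2304621 in YUMMER1.7 and 2256031 in YUMM1.7 members. The part of this depth in the counts was not tested. Of 9046 genes 192 (2.12%) were at least 2-fold higher and 164 (1.81%) at least 2-fold lower in YUMMER1.7 than in YUMM1.7 members, with a median log2 ratio of 0.04 over all genes. The metallothionein genes Mt1 and Mt2, which bind zinc and other metals, led the genes that many cells carried. Mt1 had 590 CPM in YUMMER1.7, against 291 CPM in YUMM1.7 members (log2 ratio 1.02, 0.89 to 1.16), and 299 CPM in naive members, and was found in 140, 121 and 107 cells. Mt2 had 143 CPM, against 68.3 CPM in YUMM1.7 members (1.07, 0.79 to 1.35), and 68.2 CPM in naive members. The other kept cells had 139, 44.3 and 12.2 CPM of Mt1, in the same order of the tumour libraries.

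Gal3st2, a sulfotransferase that acts on galactose, had 55.5 CPM in YUMMER1.7, against 25.3 CPM in YUMM1.7 members (1.14, 0.68 to 1.61), and 32.0 CPM in naive members, and was found in 74, 43 and 41 cells. Snhg6, a host gene of small nucleolar RNAs, had 68.6 CPM, against 30.1 CPM in YUMM1.7 members (1.19, 0.77 to 1.62), but the log2 ratio was -0.37 with members thinned to 2000 UMIs. A single YUMMER1.7 cell held 84.9% of the UMIs of the growth factor gene Nrg1 and 48.9% of those of Auts2, the other genes named in this direction. Without members that had a stromal UMI the log2 ratios of these genes were -1.03 and -2.71.

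Among genes lower in YUMMER1.7 than in YUMM1.7 the nuclear receptor gene Nr4a3, an early response gene that supports DC migration in mice, had 79.4 CPM, against 215 CPM in YUMM1.7 members (-1.44, -1.69 to -1.19). Naive members had 295 CPM of Nr4a3, so YUMMER1.7 was low and the others were high. Itgb8, the integrin beta chain that helps to activate TGF-beta, had 32.1 CPM, against 84.7 CPM in YUMM1.7 members (-1.40, -1.81 to -1.004), and 61.6 CPM in naive members, and was found in 24, 41 and 32 cells. The stress-induced factor Atf3 had 28.2 CPM, against 75.3 CPM in YUMM1.7 members (-1.42, -1.85 to -0.997), and 41.6 CPM in naive members.

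The other genes named in this direction rested on few cells. Ccl17 had 49.9 CPM in YUMMER1.7, against 129 CPM in YUMM1.7 members (-1.36), where a single cell held 44.5% of the UMIs, and the share of members with a UMI was nearly the same, at 23.8% and 23.7%. Prkg1, a cGMP-dependent kinase, had 5.21 CPM, against 210 CPM in YUMM1.7 members, where a single cell held 44.2%. Pcdh15, a protocadherin, had 36.0 CPM, against 94.9 CPM in YUMM1.7 members, with 92.8% and 69.2% in a single cell, and its log2 ratio was 0.13 without members that had a stromal UMI. Of the lists, proliferation stood lowest in YUMMER1.7 relative to YUMM1.7, with a median of -0.72 over 18 measured genes, 4 genes at least 2-fold lower, 8 intervals below 0 and 1 above. The interval lay above 0 for 9.4% and below 0 for 8.78% of all genes. The share of members with at least 4 of 21 proliferation genes went the other way, at 11.6% in YUMMER1.7 and 7.89% in YUMM1.7, with overlapping intervals. The median of this list was 0.028 with cells thinned to 2000 UMIs, which left 1 gene. The cDC2 origin list had a median of -0.675 over 5 genes, but 0.30 with the gate at 1 UMI, and antigen uptake -0.21, apoptosis and survival -0.20 and interferon gamma 0.29. Medians were nearer 0 for class II (-0.07), class I (0.045), glycolysis (0.015) and co-stimulation (-0.12), where the intervals of 8 genes lay below 0 and of 1 above.

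The same gate in the enriched libraries gave the same direction for part of the genes. Of all genes measured there 4.3% were at least 2-fold higher and 4.69% lower in YUMMER1.7 than in naive members, 3.35% and 2.94% in YUMM1.7 than in naive members, and 1.29% and 1.58% in YUMMER1.7 than in YUMM1.7 members. Of the 308 genes at least 2-fold higher in YUMMER1.7 than in naive and measured in both fractions, 64 (20.8%) were also 2-fold higher in enriched members, which is 34.8% of the 184 such genes there, against a share of 2.2% over all 8346 genes. For genes lower in YUMMER1.7 the numbers were 27 of 147 (18.4%, or 16.1% of 168, against 2.01%). For YUMM1.7 over naive 68 of 296 higher genes (23.0%, or 48.9% of 139, against 1.69%) and 19 of 182 lower genes (10.4%, or 27.1% of 70, against 0.849%) were shared. For YUMMER1.7 over YUMM1.7 19 of 158 higher and 11 of 139 lower genes were shared, against 0.54% and 0.621% of 8700 genes.

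Of the genes above, Ramp3 had 110 and 96.4 CPM in the enriched tumour libraries, against 37.7 CPM in enriched naive members, and Scin had 54.6 and 54.7 CPM, against 15.9 CPM. H2-M2 had 413 and 440 CPM, against 749 CPM in enriched naive members, and Calm4 had 15.3 and 19.6 CPM, against 34.2 CPM. Cd274 had 597 and 541 CPM, against 355 CPM, Pdcd1lg2 had 111 and 74.5 CPM, against 36.1 CPM, and Irf8 had 519 and 367 CPM, against 251 CPM. These 7 genes kept their direction in the other fraction. Calcrl (142 and 214 CPM, against 152 CPM), Osbpl3 (112 and 112 CPM, against 95.6 CPM) and Mt1 (198, 175 and 159 CPM) differed less there, and Ccl22 had 424 and 628 CPM, against 642 CPM. Nr4a3 had 454, 473 and 421 CPM there, with no low value in YUMMER1.7.

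Depleted and enriched members were also compared directly, with the 3 arms as pairs, by edgeR's quasi-likelihood test on UMIs summed per library over shared gene identifiers; the comparison was added after values had been seen. Of 13382 genes 848 (6.34%) were higher and 1525 (11.4%) lower in depleted members at an adjusted p under 0.05, and 1250 higher and 1219 lower without scaling by trimmed means, where the median log2 ratio of all genes was 0.105 in place of -0.006. Fewer passed without the arm pairing (515 higher), with DESeq2 (518 higher) or without the YUMM1.7 pair (384 higher and 859 lower). The libraries of the fractions were counted against different gene lists (54752 and 32285 genes) with different Cell Ranger versions in their headers, so fraction, gene list and software cannot be told apart. This touches many genes: mt-Co3, a mitochondrial gene, was lower by 5.05 on the log2 scale in members and by 5.38 in B cells (185, 133 and 158 CPM in depleted B cells, against 6365, 6580 and 6977 CPM in enriched B cells), and Rpl13a was lower by 3.08 and by 2.94. Of the genes lower in depleted members and measured in B cells, 463 of 1488 (31.1%) were also at least 2-fold lower in depleted B cells, against 2.22% of genes that were not called. The gap in B cells, as the log2 ratio of mean CPM plus 1, is therefore given beside the genes below that had at least 30 UMIs in B cells. Enriched B cells also held more UMIs of DC and myeloid genes. In naive, Zbtb46 and Itgam each had 26.85 CPM in enriched B cells, against 3.24 and 0.573 CPM in depleted ones. For such genes the gap is no plain baseline, and the parts of free RNA, bead sort, gene list and software in it were not tested.

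Cd40, H2-Ab1 and Pdcd1lg2 fell in depleted members, and their gap in B cells was smaller. Cd40 had 189, 218 and 205 CPM in depleted YUMMER1.7, YUMM1.7 and naive members, against 322, 435 and 384 CPM in enriched members (log2 -1.001, adjusted p = 5.65e-05 by edgeR), with a gap of -0.23 in B cells. H2-Ab1 fell by 0.90 (adjusted p = 0.00337, edgeR), with -0.12 in B cells, but its adjusted p was 0.0601 without the YUMM1.7 pair. Pdcd1lg2 fell by 0.99 (adjusted p = 0.0124), with -0.09 in B cells, but its adjusted p was 0.0684 without the YUMMER1.7 pair and 0.307 without the arm pairing. Ccl17 had 51.2, 132 and 69.9 CPM, against 206, 331 and 235 CPM (log2 -1.78, SE 0.14, adjusted p = 1.35e-05 by edgeR), with a gap of -0.75 in B cells, where it had at most 3.72 CPM. Ptprc fell by 1.11 (adjusted p = 9.38e-05), with -0.40 in B cells.

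The cDC2 marker Sirpa, and Itgax and Itgam, which encode the CD11c and CD11b that the beads of the enriched libraries bind, fell by 3.19, 3.97 and 5.64 in depleted members (adjusted p = 1.46e-07, 6.60e-06 and 0.000123 by edgeR). B cells showed gaps of -3.04, -3.55 and -3.57 for the same genes, so gaps of this kind were present in cells of another type, and those of Itgax and Itgam are no finding given that enrichment. Neutrophil genes, summed, were at 13.9, 13.3 and 2.41 CPM in depleted members, against 832, 630 and 472 CPM in enriched members, and monocyte genes were at 91.1, 61.2 and 88.1 CPM, against 1420, 777 and 503 CPM. The part of free RNA in these gaps was not tested.

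A smaller set rose in depleted members. Aire had 8.46, 30.9 and 9.89 CPM in depleted members, against 3.14, 2.70 and 1.66 CPM in enriched members (log2 2.47, SE 0.40, adjusted p = 0.00162 by edgeR), higher in 3 of 3 arms, and had too few UMIs in B cells for a gap. Cadm1 rose by 1.09 (adjusted p = 0.00162), while its gap in B cells was -2.17. Scin rose by 1.60 (SE 0.11, adjusted p = 6.28e-06 by edgeR) with a gap of 0.18 in B cells, which had under 1 CPM in both fractions. Scin and Cd70 did not pass without the arm pairing (adjusted p = 0.0736 and 0.201). The co-stimulatory genes Tnfrsf4, Cd70 and Icosl rose by 1.12, 1.07 and 0.71 (adjusted p = 0.000344, 0.00275 and 0.00130 by edgeR), with gaps of -0.14, 0.01 and 0.25 in B cells. Il23r rose by 1.21 (adjusted p = 0.00903), while its gap in B cells was -1.90, but its adjusted p was 0.103 without the YUMM1.7 pair and 0.0564 without the arm pairing. Flt3, Zbtb46, Batf3 and Ccl22 did not pass the edgeR test, with adjusted p of 0.991, 0.698, 0.0719 and 0.204. Their gaps in B cells were -0.96, -1.795, -2.37 and -1.38 in the same order. By edgeR, Ccl22 passed without the YUMMER1.7 pair (-0.47, adjusted p = 0.0292), and Batf3 without scaling by trimmed means (0.39, adjusted p = 0.0143). Members were chosen by Fscn1 in both fractions, so its log2 ratio of 0.23 (gap in B cells -0.16) is a description only.

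**Figure D5:**
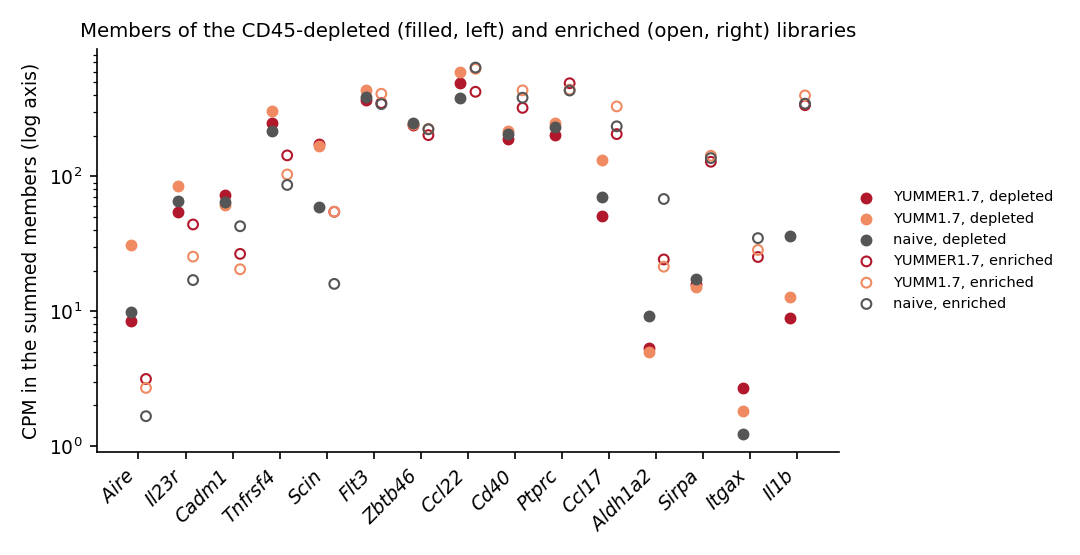
CPM (log axis), over shared gene identifiers, of 15 genes in the summed members of each CD45-depleted (filled) and CD11b- and CD11c-enriched (open) library. Aire, Cadm1 and Scin are higher and Ccl17, Aldh1a2, Sirpa and Itgax lower in the depleted member of each pair of libraries, while Flt3 and Zbtb46 lie together.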

How the data were processed

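The deposited files hold raw UMI counts per gene and barcode, 1 matrix per library. The submitters' processing notes name Cell Ranger 8.0.1 and mm10; the version is 7.0.0 for the CD45-depleted and 8.0.1 for the enriched libraries, per the file headers. Cells were kept and gated as described, with no correction for free RNA; Scrublet's automatic thresholds marked 0 of the kept cells of the depleted libraries, so removal above the 95th percentile of its scores is an alternative. As mt-Co3 is near 0 in depleted libraries, the mitochondrial limit is not equivalent in the fractions.

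Log2 ratios of summed counts have exact conditional binomial 95% intervals and shares Clopper-Pearson intervals, for counting error only. Members, gene lists and the 1% class II limit were chosen with earlier results of these data known. Genes were named by the interval bound nearest 0: 8 per direction against naive in both tumour libraries and 6 per direction between tumour libraries, from 50 UMIs and 50 CPM up where the gene is higher, and with no less than 0.5 times the CPM of the other kept cells there; immunoglobulin, T cell receptor, mitochondrial, ribosomal, haemoglobin, sex-linked and unnamed genes were left out. List members were named as highest, lowest or most abundant, some after their values were seen. Python 3.11.15, numpy 2.4.6, scipy 1.17.1, pandas 2.3.3, scanpy 1.11.5, R 4.3.3, edgeR 4.0.16 and DESeq2 1.42.0 were used. Steps were tested on simulated data. Values of some listed genes are not reported here.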

Additional observations from a re-analysis of the deposited data

Results flagged for a closer look

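The class II list moved in opposite directions in the members of the 2 fractions. In CD45-depleted members its median log2 ratio to naive was -0.457 in YUMMER1.7 and -0.368 in YUMM1.7, and in members of the CD11b- and CD11c-enriched libraries it was 0.384 in YUMMER1.7 and 0.361 in YUMM1.7. The 2 tumour libraries of each fraction lay on the same side of naive, and the difference between the fractions was not tested, since each arm has 1 library per fraction.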

How the results depend on the processing

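The labels give no replicate numbers and each arm has 1 library per fraction, so arms could not be paired with each other; the comparison of the fractions took the arm as a block. Of the list medians under the alternatives, 719 stayed within the median half-width of the gene intervals, 16 moved further and 6 reversed. A reversal was counted only for medians of at least 0.3 in size. Smaller medians that changed sign were not counted, such as chemokine ligands in YUMMER1.7 over naive (0.253, and -0.201 thinned). The reversals were antigen uptake in YUMM1.7 over naive (0.096 with no count filter, 0.102 without the cell with most UMIs), cDC2 origin in YUMM1.7 over naive (-0.297 thinned), cDC2 origin in YUMMER1.7 over YUMM1.7 (0.30 with the gate at 1 UMI), proliferation in YUMMER1.7 over YUMM1.7 (0.028 thinned) and dissociation in YUMMER1.7 over naive (-0.094 thinned). Between the tumour libraries Auts2 (-2.707) and Nrg1 (-1.025) reversed without members with stromal UMIs, Pcdh15 reversed there (0.134) and without cells of high Scrublet score (0.974), and Snhg6 reversed when thinned (-0.371); the cause was not tested. Thinning often left few genes of a list. Class II medians ranged from -0.763 to -0.407 in YUMMER1.7 and from -0.618 to -0.255 in YUMM1.7, and Langerhans medians from -0.726 to -0.421 and from -0.831 to -0.067.

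Over cells with Ptprc the log2 ratio of shares was 1.547 for YUMMER1.7 over naive and 0.574 for YUMMER1.7 over YUMM1.7. Counts of genes past 2-fold depended on filters, which change how many genes are tested. For YUMMER1.7 over naive, 587 genes were higher with the gate at 1 UMI, 138 higher and 241 lower without members with stromal UMIs, 90 and 70 thinned, 87 and 35 with at least 100 UMIs, 1488 and 1195 with no filter, and 1027 and 611 at 1.5-fold. For YUMM1.7 over naive, 181 were higher without members with stromal UMIs, 103 and 55 were higher and lower thinned, 75 and 32 with at least 100 UMIs, 1393 and 1266 with no filter, and 924 and 733 at 1.5-fold. For YUMMER1.7 over YUMM1.7, 387 were higher with the gate at 1 UMI, 111 higher without members with stromal UMIs, 53 and 63 higher and lower thinned, 30 and 34 with at least 100 UMIs, 1102 and 1376 with no filter, and 739 and 520 at 1.5-fold. Between the fractions 515 genes were higher without the arm block, 518 with DESeq2, and 384 to 761 higher and 859 to 1383 lower without 1 arm. Of the gene counts and named genes of that comparison, 194 results kept their size or side of the threshold. Another 4 results, all gene counts, moved, while 22 results for named genes lost the threshold and 4 gained it. Among those that gained it was Fscn1, a gate gene whose level is a description only. With 167 to 190 members a library, genes under about 30 UMIs could not be compared.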
